A study of Mus musculus with 6 samples.

Results

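The regions described here were the CpG-poor accessible intervals (peaks) in first introns, in Beko cells. This is a line of mouse pre-T cells, and it was profiled by ATAC-Seq. ATAC-Seq uses a transposase to place sequencing adapters in open chromatin, so intervals dense in reads mark accessible DNA. The study had 6 libraries, in 2 groups of 3. One group received DAPT, a γ-secretase inhibitor (GSI), for 24 h, and the control group received DMSO for 24 h, so that open chromatin could be compared with and without Notch activity. All 6 came from 1 cell line, in which Notch signaling is active unless GSI is given. The authors merged the 6 libraries into 1 list, which gives positions but no value per library, so no comparison of GSI with DMSO was made and no value below has an error between replicates. Peaks were kept by 4 criteria, on autosomes of build mm9 and with the GENCODE vM1 annotation. They lay more than 1 kb from the start of every annotated transcript, they had an observed to expected CpG ratio below 0.6 or a GC content below 50%, their centre lay in no exon, and that centre fell in intron 1 of the longest protein-coding transcript around it. Of 32527 peaks in the list, 31879 were autosomal, 20685 of these lay more than 1 kb from every start, and 2682 met all criteria. They made up 8.41% of autosomal peaks (95% Wilson interval 8.11 to 8.72, counting error only) and 8.25% of the whole list.

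Introns are removed from the transcript, but their DNA can hold enhancers, which are bound by transcription factors and can act on promoters at a distance. The first intron is on average the longest one of a mammalian gene and lies next to the promoter. In developing T cells, enhancers are known to be bound by E proteins at E-boxes, by RUNX and ETS factors, by TCF1 and by Ikaros, while RBPJ is the DNA-binding partner of the Notch intracellular domain. The list was checked against lineage genes through peaks within 1 kb of their starts. Such a peak was present at 13 of 14 T-lineage markers (all but Cd3d), at 0 of 7 B-lineage markers and at 1 of 6 myeloid markers, which was Spi1.

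The sequences of a few members show what these regions contain, on the plus strand of mm9 unless stated. The first set is 3 of the 5 members with most copies of TGGGAA, the core bound by RBPJ and also by Ikaros. The other 2 spread their copies over longer stretches. Capitals mark TGGGAA on either strand. Each line is the 250 bp stretch of the peak that holds most copies.
Bcl2 chr1:108584311-108584560 (+ strand): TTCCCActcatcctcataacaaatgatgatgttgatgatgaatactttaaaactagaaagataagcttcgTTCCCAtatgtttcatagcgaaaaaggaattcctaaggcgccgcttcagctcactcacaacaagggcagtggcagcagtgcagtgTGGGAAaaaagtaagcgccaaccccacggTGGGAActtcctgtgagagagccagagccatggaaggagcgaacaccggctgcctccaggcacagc
Hpcal1 chr12:17743887-17744136 (+ strand): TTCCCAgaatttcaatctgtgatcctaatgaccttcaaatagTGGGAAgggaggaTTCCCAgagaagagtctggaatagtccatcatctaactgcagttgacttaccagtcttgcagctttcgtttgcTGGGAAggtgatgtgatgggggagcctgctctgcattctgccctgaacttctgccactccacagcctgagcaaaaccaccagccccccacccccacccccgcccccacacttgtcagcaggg
Nav1 chr1:137567051-137567300 (+ strand): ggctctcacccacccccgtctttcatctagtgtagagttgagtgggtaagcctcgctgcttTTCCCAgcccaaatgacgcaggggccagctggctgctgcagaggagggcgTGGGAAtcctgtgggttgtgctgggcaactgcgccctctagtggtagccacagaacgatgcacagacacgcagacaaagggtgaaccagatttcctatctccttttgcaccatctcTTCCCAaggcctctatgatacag
The Bcl2 member (867 bp, in the first intron of a gene for an inhibitor of apoptosis) held 6 copies in the whole peak, the most of any member. The Hpcal1 member (989 bp, in a gene for a neuronal calcium sensor) and a Ptp4a3 member (1789 bp, in a gene for a tyrosine phosphatase) held 5 each. The Nav1 member (548 bp, in a gene for a neuron navigator protein) and another Hpcal1 member (900 bp) held 4 each.

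The second set shows 200 bp around the centre of members in genes of Notch and T-cell biology, taking in each gene the member with the most kinds of core. Capitals mark TGGGAA, the E-boxes CAGCTG and CAGGTG, the RUNX core TGTGGT and the ETS core AGGAAG, on either strand.
Maml3 chr3:51839526-51839725 (+ strand): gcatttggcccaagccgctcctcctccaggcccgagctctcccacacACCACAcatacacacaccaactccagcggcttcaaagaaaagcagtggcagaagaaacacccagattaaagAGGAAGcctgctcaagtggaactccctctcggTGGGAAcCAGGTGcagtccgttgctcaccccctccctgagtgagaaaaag
Notch1 chr2:26369083-26369282 (+ strand): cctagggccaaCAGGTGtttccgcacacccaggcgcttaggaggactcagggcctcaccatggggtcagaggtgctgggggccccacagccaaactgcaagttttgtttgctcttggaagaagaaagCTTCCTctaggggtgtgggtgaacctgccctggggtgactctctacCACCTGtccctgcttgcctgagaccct
Rbpj chr5:53996803-53997002 (+ strand): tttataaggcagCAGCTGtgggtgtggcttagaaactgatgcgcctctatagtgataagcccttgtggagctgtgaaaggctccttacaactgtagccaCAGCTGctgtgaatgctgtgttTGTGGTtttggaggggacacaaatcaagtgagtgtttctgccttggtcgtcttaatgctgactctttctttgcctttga
Rora chr9:68732436-68732635 (+ strand): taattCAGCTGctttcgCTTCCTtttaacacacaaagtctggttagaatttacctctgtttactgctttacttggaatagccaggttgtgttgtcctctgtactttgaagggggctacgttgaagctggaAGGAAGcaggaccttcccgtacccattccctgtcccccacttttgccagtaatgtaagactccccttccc
Cd247 chr1:167732199-167732398 (+ strand): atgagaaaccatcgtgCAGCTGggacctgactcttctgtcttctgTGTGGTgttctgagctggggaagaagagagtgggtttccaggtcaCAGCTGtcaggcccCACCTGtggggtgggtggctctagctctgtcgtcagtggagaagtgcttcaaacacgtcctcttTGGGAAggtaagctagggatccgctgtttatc
Prkcq chr2:11095405-11095604 (+ strand): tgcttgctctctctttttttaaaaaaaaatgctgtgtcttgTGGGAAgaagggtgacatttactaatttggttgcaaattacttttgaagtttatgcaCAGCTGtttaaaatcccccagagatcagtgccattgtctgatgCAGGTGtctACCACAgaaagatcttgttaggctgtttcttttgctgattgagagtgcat
Cd4 chr6:124836080-124836279 (+ strand): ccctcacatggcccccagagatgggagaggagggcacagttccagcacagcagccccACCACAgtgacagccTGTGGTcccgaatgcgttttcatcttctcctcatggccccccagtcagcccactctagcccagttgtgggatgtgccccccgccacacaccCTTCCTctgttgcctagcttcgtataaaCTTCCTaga
Il2ra chr2:11575095-11575294 (+ strand): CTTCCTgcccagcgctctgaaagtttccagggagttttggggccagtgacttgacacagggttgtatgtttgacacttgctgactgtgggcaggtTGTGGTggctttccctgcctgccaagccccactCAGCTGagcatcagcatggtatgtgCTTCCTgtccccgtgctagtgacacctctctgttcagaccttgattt
The Maml3 and Prkcq windows each held 4 different cores, and the Cd247 window held 2 copies of CAGCTG beside a second E-box, a RUNX core and an RBPJ core. In the Rbpj window 2 copies of CAGCTG stood with a RUNX core, and the Cd4 window had 2 RUNX and 2 ETS cores but no E-box of these 2 kinds.

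Members were short regions of moderate GC content. Their median width was 471 bp (quartiles 385 and 620.0 bp, range 236 to 2356 bp), and 129 of them (4.81%) were wider than 1 kb, against 14.6% of all autosomal peaks. The median GC content was 50.4% (quartiles 46.8 and 53.6), above the 46.6% of the intervals of equal width 2 kb from their edges. The median observed to expected CpG ratio was 0.200. Together they covered 1.43 Mb. The most similar class of peaks was that in later introns, chosen by the same criteria but with the centre in intron 2 or beyond, with 6416 peaks. Their median width was 455 bp, and per autosome the median of members was higher by 16.2 bp ± 20.1 (SD of the difference, n = 19 autosomes). It was higher on 17 of 19 autosomes (exact sign-flip permutation test over autosomes, two-sided, adjusted p = 0.00750). Autosomes of 1 merged list are not biological replicates, so this test asks only whether the difference recurs across the genome. The 9643 CpG-poor peaks outside every transcript had a median width of 465 bp and a median GC content of 49.7%.

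The 5 widest members lay at chr8:125224454-125226809 in Gm20388 (2356 bp), in Ptp4a3 at chr15:73561962-73563750 (1789 bp), in Ccnd3 at chr17:47678833-47680496 (1664 bp), in Megf11 at chr9:64323837-64325469 (1633 bp) and in Tbc1d8 at chr1:39506067-39507662 (1596 bp). Ccnd3 codes for cyclin D3, which drives the proliferation of pre-T cells, and its first intron held 7 members with a median width of 938 bp, the widest 37665 bp from the gene's start. The Ptp4a3 member had its centre 9281 bp from the start of its host transcript, the shortest distance of the 5. Gm20388 is an annotated gene of 4.43 Mb (chr8:122434741-126869622) whose first intron runs across many other genes. It alone held 144 members (5.37%), 50 of them also inside another coding gene. With introns numbered as if Gm20388 were not annotated, 2564 peaks met the criteria.

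At equal distance from start sites, the density of CpG-poor peaks of any width in first introns was not distinguished from that in later introns. The median distance from the edge of a member to the nearest annotated start was 9850.5 bp, and the median distance from its centre to the start of its own host transcript was 19385 bp. In 589 members (22%) the host start was over 50 kb away. This count takes in members of Gm20388, whose 144 members lay 15832 to 4375813 bp from its start. The host start was the nearest annotated start in 30.3% of members, and 181 members lay over 50 kb from every start. The introns that held members were long, with a median of 41691 bp against 10584 bp for the introns that held later-intron peaks. Density was the number of peaks per Mb of intron outside exons and over 1 kb from every start. In first introns it was 11.2 per Mb at 1 to 2 kb from the nearest start, 16.4 per Mb at 5 to 10 kb, 16.3 per Mb at 10 to 20 kb, 6.54 per Mb at 50 to 100 kb and 3.08 per Mb beyond. Later introns had 11.7, 14.4, 13.7, 7.14 and 3.65 per Mb in the same classes. Per autosome, first introns held 12.6 peaks per Mb against 11.9 in later introns standardised to the same distances, a difference of 0.660 ± 2.24 (SD, n = 19 autosomes). It was positive on 12 of 19 autosomes and did not pass the test (exact sign-flip permutation, two-sided, adjusted p = 0.265). The call depended on the comparison. In peaks of at least 500 bp, at the same distances, the difference was 0.788 per Mb and passed (adjusted p = 0.00902, exact permutation test). Without standardisation by distance the difference was 1.76 per Mb (adjusted p = 0.00672 in the exact permutation test), and with later introns standardised to the length of the intron instead it was 3.41 per Mb (adjusted p = 1.29e-05).

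**Figure D1:**
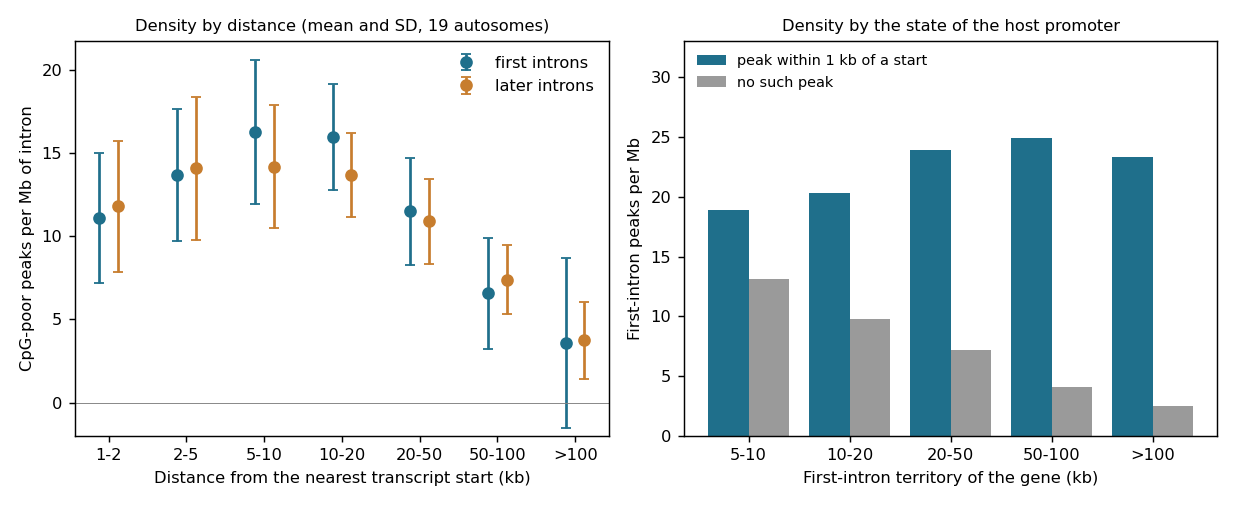
Left, CpG-poor peaks per Mb of intron (y axis) by distance from the nearest transcript start in kb (x axis) for first and later introns, as mean and SD over 19 autosomes. First introns have their highest mean, 16.3 per Mb, at 5 to 10 kb, and the bars of both classes overlap at every distance. Right, first-intron peaks per Mb (y axis) by the first-intron territory of the gene in kb (x axis), for genes with and without a peak within 1 kb of a start, with 23.3 against 2.53 per Mb in genes with over 100 kb. The 23.3 per Mb includes Gm20388, at 38.1 per Mb.

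Within the first intron, members were spread over its whole length. In 5 equal parts of the intron from its 5′ end the density was 10.5, 11.9, 12.5, 14 and 13.9 per Mb, with median widths between 458 and 486 bp. Territory within 1 kb of any start was left out here, as it was for the members. At the 1 kb limit itself the nearest members were a Notch1 peak at chr2:26357675-26358328, 1014 bp from a start, and peaks in Smad2 and Stx1a, both at 1020 bp. The nearest peaks left out were in Arhgap26 at 999 bp, Ston1 at 996 bp and Wdr64 at 995 bp. There were 22 members between 1000 and 1100 bp and 34 otherwise eligible peaks between 900 and 1000 bp, so the limit cut through a continuous range. The CpG limit left out 54 first-intron peaks, the nearest in Hoxb6 and Kdm6b at a ratio of 0.610.

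The members fell in 1531 host genes, 11.9% of the 12891 autosomal coding genes with first-intron territory. A single member was held by 1037 hosts (67.7%), while 494 hosts held several and together accounted for 1645 members (61.3%). Neighbouring members of the same intron were 9211 bp apart at the median, and 327 of 1143 such gaps (28.6%) were 5 kb or less. Another peak of any kind, also one near a start, lay within 5 kb of 35.2% of members. The share was 25% in later-intron peaks and 28.8% in CpG-poor peaks outside every transcript. These shares were not tested and not compared at equal distance from starts. The median distance to the nearest start was 9850.5 bp in members and 13984 bp in later-intron peaks. After Gm20388, the hosts with most members were Pde10a with 17, Maml3 with 14, Hivep3 with 12, Prkce with 11, Ccdc162 with 10, Tshz2 and Rora with 9 each, and Hpcal1 and Rreb1 with 8 each. Rbms1, Ror2, Sorcs2 and Ext1 also had 8, at fewer members per Mb of first-intron territory, which broke the tie. Pde10a codes for a cyclic nucleotide phosphodiesterase, Hivep3 for a large zinc finger protein also known as Schnurri-3, and Prkce for protein kinase C epsilon. Their first introns were long, with 356 kb of territory in Pde10a and 535 kb in Rora, so the density of members ranged from 16.8 per Mb in Rora to 85.1 per Mb in Ccdc162, against 12.6 per Mb over all genes. Tshz2, and Ror2 among those tied at 8, had no peak within 1 kb of a start.

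Hosts mostly had an accessible promoter, here a peak within 1 kb of the start of any of their transcripts, which the criteria for members leave out. Such a peak was found at 1119 of 1531 hosts (73.1%) and at 47.6% of all autosomal coding genes. Among genes with at least 5 kb of first-intron territory, the share per autosome was 75% ± 4.94 in hosts (SD, n = 19 autosomes, range 63.6 to 85.4) and 44.6% ± 5.59 in other genes standardised to the same intron sizes (range 35.4 to 53.9). The difference of 30.4 percentage points had the same sign on 19 of 19 autosomes (exact sign-flip permutation test, two-sided, adjusted p = 1.47e-05, from the smallest p these 19 pairs can give, 3.81e-06). The gap varied with the size of the intron, which was not tested. In genes with 5 to 10 kb of territory 68.9% of hosts and 59.6% of other genes had an accessible promoter, in genes with 50 to 100 kb 78.1% and 24.5% had one, and in genes with over 100 kb 56.1% of 132 hosts and 9.66% of 238 other genes had one. In terms of density, first introns of genes with an accessible promoter held 21.9 members per Mb and those of genes without one 5.11 per Mb. With Gm20388 left out the density was 21.2 per Mb in genes with an accessible promoter. Even so 600 members lay in 412 hosts with no such peak. Later-intron peaks were similar in this respect, with 72.0% of them in a gene with an accessible promoter against 77.6% of members, a difference that was not tested. Members in hosts without an accessible promoter had a median width of 462 bp and held CAGCTG in 31% of centres and the CTCF consensus in 6.33%, against 473 bp, 28.9% and 3.65% in hosts with one, also not tested.

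Among genes of the Notch pathway, 9 of 35 with first-intron territory were hosts (25.7%), with 28 members and 37.6 members per Mb. Over all genes in the same classes of territory the share of hosts was 15.1%. With only members more than 5 kb from every start counted, 5 of the 35 were hosts. The share over all genes was not computed with that limit. Maml3 codes for a Mastermind-like coactivator that joins RBPJ and the Notch intracellular domain on DNA, and it held 14 of the 28. They were spread from 16302 to 222595 bp from its start along an intron of 246602 bp, with widths of 325 to 926 bp, and 4 of them held CAGCTG in their centre. Notch1, the receptor cleaved by γ-secretase, had 4 members in an intron of 31092 bp. The first was centred 2973 bp from its start and 1167 bp wide (chr2:26368600-26369766), followed by peaks of 654, 393 and 405 bp at 14154, 23035 and 30654 bp, the 654 bp peak being the one just past the 1 kb limit from another start. Rbpj itself had 2 members, at 10954 bp (645 bp wide) and 49885 bp (461 bp wide). Kat2b, a histone acetyltransferase, had 3, the middle one 1196 bp wide. Notch2, Notch3, Lfng and Heyl had 1 each. The Notch3 member (chr17:32300858-32301876, 1019 bp) held 2 TGGGAA sites and 3 copies of CAGCTG in its central window. Lfng codes for a glycosyltransferase that modifies Notch and Heyl for a target of the pathway.

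**Figure D2:**
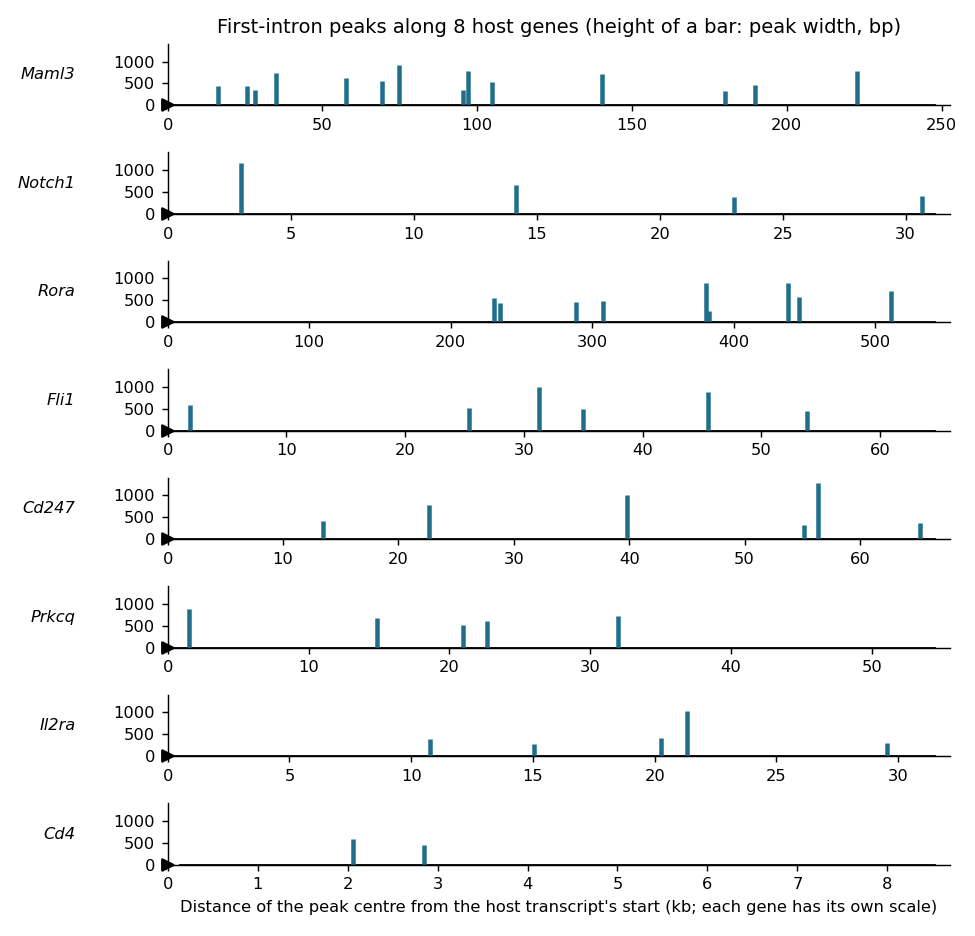
Positions of members along the first intron of 8 host genes. The x axis is the distance of the peak centre from the host transcript's start in kb, on a scale of its own for each gene, the bar height is the width of the peak in bp and the black line is the intron. Maml3 holds 14 members from 16302 to 222595 bp, while the first of the 9 members in Rora lies at 230943 bp.

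Genes of T-cell receptor signalling were hosts in 14 of 36 cases with first-intron territory (38.9%, against 19.3% of all genes in the same territory classes), with 33 members at 48.7 per Mb. Cd247, which codes for the CD3 zeta chain, held 6, at 13487 to 65211 bp from its start along an intron of 66279 bp. The widest of these was 1281 bp, at chr1:167774541-167775821. Prkcq codes for protein kinase C theta, which relays the receptor signal, and held 5, the first centred 1496 bp from its start and 894 bp wide. The adaptor gene Fyb held 5. Cd4, Cd28, Csk and Dgkz held 2 each, which in the short first intron of Cd4 (8386 bp) came to 307 per Mb of allowed territory. The 2 Cd4 peaks were centred 2059 bp (586 bp wide) and 2845 bp (450 bp wide) from its start, and the second held 3 TGGGAA sites. Fyn, a Src family kinase, held 1 member.

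Among transcription factors of T cells, 16 of 41 genes with first-intron territory were hosts (39.0%, against 16.5% of all genes in the same territory classes), with 40 members at 28.9 per Mb. Rora codes for a nuclear receptor and had 9 members, all between 230943 and 511623 bp from the start of its host transcript in an intron of 542102 bp. None lay in the part of the intron nearest that start. From their edges to the nearest annotated start of any transcript the distance was 29780 to 160507 bp. Fli1, an ETS factor, had 6 in 64417 bp, with widths of 460 to 1007 bp, the nearest centred 1881 bp from the start. Foxo1, a forkhead factor that governs T-cell homing and survival, had 4. Tox and Elf1 had 3 each, and Nfatc2, Runx3, Stat5b and Zeb1 had 2 each. Bach2 had 1. The widest of these was a Tox member of 1386 bp.

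Outside these lists, 9 of 35 genes for cytokine receptors and homing were hosts (25.7%, against 15.3% of all genes in the same territory classes), and Il2ra, the alpha chain of the interleukin 2 receptor and a marker of early T-cell progenitors, had 5 members between 10776 and 29550 bp from its start while no peak lay within 1 kb of any of its starts. Chromatin regulators were hosts in 16 of 46 cases (34.8%, against 19.5% of all genes in the same territory classes, with 21.8 members per Mb). Of the genes of B-cell and myeloid lineage, 1 of 26 was a host (3.85%, against 9.18% in the same territory classes), which was Cd38 with 2 members. Of the genes for synaptic adhesion and channels, 4 of 39 were hosts (10.3%, against 30.5% of all genes in the same territory classes), at 0.487 members per Mb of their 10.3 Mb of territory. Those 4 were Rbfox1, Dpp6, Negr1 and Ntm. A peak near a start was found at 44 of 47 matched genes of T-cell receptor signalling, 41 of 49 T-cell transcription factors, 47 of 56 Notch pathway genes, 48 of 56 chromatin regulators, 34 of 44 genes for cytokine receptors and homing, 9 of 42 B-cell and myeloid genes and 0 of 41 synaptic and channel genes. The lists were not tested, and the part of promoter state in their shares was not tested.

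The centre of members was rich in cores of lymphoid transcription factors. Each of 12 cores was searched on both strands in the central 200 bp of the peak and in 200 bp of flank starting 2 kb from its edge. The E-box CAGCTG, bound by E proteins and related factors, was in 29.4% of members with a flank and 9.15% of flanks. Per autosome the difference was 20.3 percentage points ± 4.02 (SD, n = 19 autosomes), positive on 19 of 19, with a range over autosomes of 24.0 to 35.4% in members and 4.67 to 13.5% in flanks (exact sign-flip permutation test, two-sided, adjusted p = 1.47e-05). The ETS core AGGAAG was in 40.3% against 23.1% of flanks, the E-box CAGGTG in 27.5% against 15.6%, the RUNX core TGTGGT in 26.9% against 17.8%, and the SP core GGGCGG in 8.10% against 3.73%, each higher on 19 of 19 autosomes with the same adjusted p in the same exact permutation test. Smaller differences passed for the TCF and LEF core CTTTGA (16.4% against 13.4%) and the AP-1 core TGANTCA (6.87% against 5.53%), with adjusted p of 0.0160 and 0.0169 in the exact permutation test. CTTTGA no longer passed in members more than 5 kb from every start or of at least 500 bp (adjusted p = 0.0804 and 0.0947, exact permutation test). TGANTCA no longer passed in either of these, over whole peaks or with flanks 10 kb away (adjusted p = 0.174, 0.784, 0.0879 and 0.178, exact permutation test). The GATA core AGATAA did not pass, with 9.93% against 10.7% (adjusted p = 0.532, exact permutation test). In the central 200 bp of all autosomal peaks the shares were 21.3% for CAGCTG, 32.7% for AGGAAG, 23.5% for CAGGTG and 23.3% for GGGCGG. All autosomal peaks include those near starts and CpG-rich ones, which the criteria for members leave out. GGGCGG itself holds a CpG, so its share in members is not set against like peaks here. Peak and flank also differed in GC content, as given above, and its part in these shares was not tested.

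**Figure D3:**
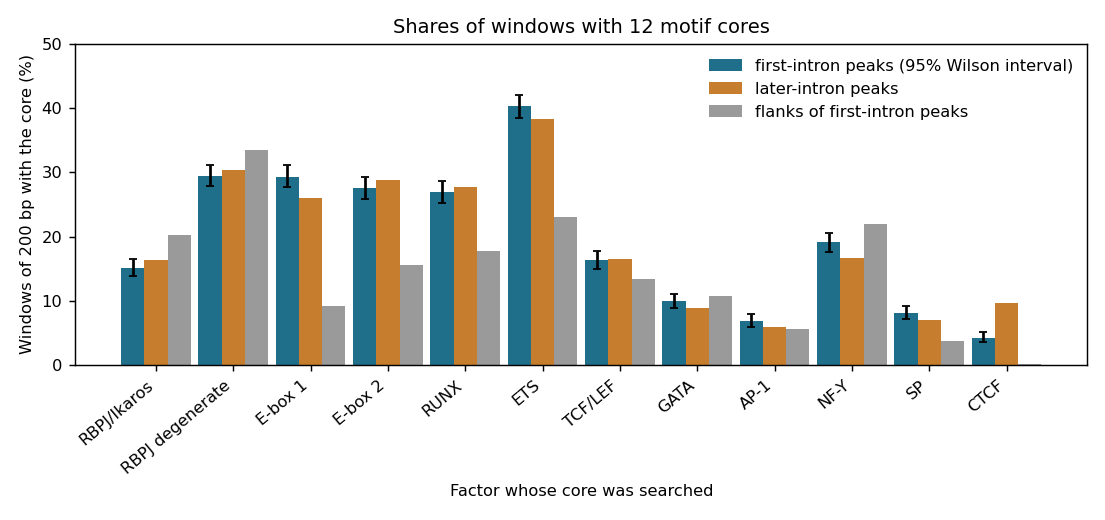
Share of 200 bp windows with each of 12 cores (y axis, %), named on the x axis by the factor (E-box 1 is CAGCTG and E-box 2 is CAGGTG), in the centre of first-intron peaks with 95% Wilson intervals, in later-intron peaks and in flanks of first-intron peaks. The first E-box stands at 29.3% in first introns against 9.15% in flanks, the RBPJ core lies below its flanks, and CTCF is the core with the largest gap between the 2 intron classes.

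Of the E-boxes, the RUNX core and the ETS core, 4 cores in all, none was found in 594 members (22.1%) against 48.7% of flanks, 1 in 40.5% against 38.4%, 2 in 29.2% against 11.4%, 3 in 7.46% against 1.42%, and all 4 in 19 members (0.708%) against 0.0373%. Later-intron peaks lay close to members, with 24.3, 40.1, 27.0, 8.03 and 0.701% in the same order, which was not tested. Pairs of cores occurred together about as often as the product of their shares, with ratios from 0.858 to 1.07 over 15 pairs of 6 cores. CAGCTG occurred together with TGTGGT in 215 members (8.02%, where the product of both shares was 7.90%) and with AGGAAG in 296 (11.0%, product 11.8%). In the profile around the centre, CAGCTG was found in 10.0% of members in the 50 bp just before the centre and in 2.46% in the outermost bin on that side, 1000 to 950 bp away, while AGGAAG went from 15.4% to 6.56% and TGTGGT from 8.72% to 4.70%. CAGCTG was present in 1 copy in 671 members and in 2 copies in 100. Members were also split by distance from the nearest start, at 1 to 5, 5 to 10, 10 to 20, 20 to 50 and over 50 kb. CAGCTG was in 27.5, 29.6, 31.1, 28.8 and 31.5% of these classes and GGGCGG in 9.92, 6.94, 7.96, 6.84 and 8.29%. Median widths lay between 462 and 494 bp. Differences between the classes were not tested.

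**Figure D4:**
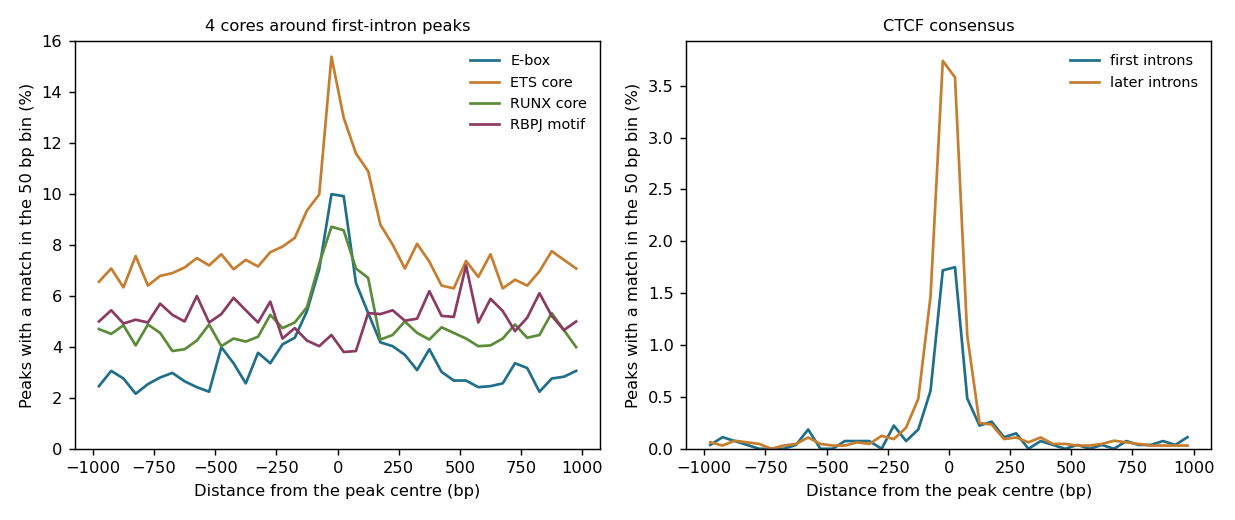
Left, share of first-intron peaks with a match in each 50 bp bin (y axis, %) by distance from the peak centre in bp (x axis) for the E-box CAGCTG, the ETS core, the RUNX core and the RBPJ core. The ETS core stands at 15.4% and the E-box at 10.0% in the bin just before the centre, and the RBPJ core at 3.80% in the bin just after it. Right, the same for the CTCF consensus in first-intron and later-intron peaks, with 1.72% and 3.74% in the bin before the centre.

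The RBPJ core was less frequent in members than beside them. TGGGAA was in the centre of 15.1% of members and in 20.2% of flanks, a difference of -5.20 percentage points ± 4.94 (SD, n = 19 autosomes) that was negative on 14 of 19 autosomes (exact sign-flip permutation test, two-sided, adjusted p = 6.41e-04). With flanks 10 kb away it was -2.85 percentage points and did not pass (adjusted p = 0.0929, exact permutation test), as it did not in members of at least 500 bp (-3.44 percentage points, adjusted p = 0.0981, exact permutation test). With the degenerate core, TGGGAA or TGAGAA, the shares were 29.5% and 33.5% (adjusted p = 0.0114, exact permutation test). That difference was -1.16 percentage points with flanks 10 kb away, -0.721 in members of at least 500 bp and -1.42 over whole peaks, and passed in none of these (adjusted p = 0.484, 0.733 and 0.285, exact permutation test). The NF-Y core CCAAT was also lower in members, 19.1% against 21.9% (adjusted p = 0.00853, exact permutation test), but did not pass with flanks 10 kb away or in members of at least 500 bp (adjusted p = 0.0929 and 0.0518, exact permutation test). In all autosomal peaks the central shares were 15.3% for TGGGAA, 26.9% for the degenerate core and 19.2% for CCAAT. In later-intron peaks they were 16.4, 30.3 and 16.7%. In the 50 bp just after the centre, TGGGAA was in 3.80% of members and 4.01% of later-intron peaks. In the outermost bin before the centre, 1000 to 950 bp away, these shares were 5.00% and 5.14%. Over the whole peak, 1651 members (61.6%) had no TGGGAA, 763 had 1 copy and 218 had 2, while 8 had 4, 2 had 5 and 1 had 6. Among intervals of equal width at the side, 1569 had none and 76 had 3 copies, against 39 members with 3. Another 785 of these intervals had 1 copy, 232 had 2, 11 had 4 and 1 had 7, so the highest count lay outside the members.

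Head-to-head pairs of the RBPJ core, at which 2 Notch complexes can assemble, were rare in every class of peaks compared. A pair of the degenerate core facing TTCCCA or TTCTCA across 15 to 17 bases was found in 1 of 2682 members (0.0373%, 95% Wilson interval 0.00658 to 0.211), and in 5 of 2674 flanks of equal width. Later-intron peaks had 6 of 6416 against 8 flanks, and peaks outside transcripts had 26 of 9643 (0.270%, interval 0.184 to 0.395) against 15. All autosomal peaks had 57 of 31879 (0.179%) against 52 of 31849 flanks, and the interval of members took in that share. No member had a pair in which both sites were TGGGAA, against 2 of the flanks. The 1 pair lay in Abi2, which codes for an Abl interactor that regulates actin, with a spacer of 16 bases. It is shown with both sites in capitals.
Abi2 chr1:60473740-60473807 (+ strand): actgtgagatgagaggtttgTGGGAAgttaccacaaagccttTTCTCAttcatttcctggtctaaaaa

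Against later-intron peaks, first-intron peaks differed in 2 of the 12 cores. The E-box CAGCTG was in 29.3% of members and 26% of later-intron peaks, higher by 3.26 percentage points ± 4.14 (SD, n = 19 autosomes) and on 15 of 19 autosomes (exact sign-flip permutation test, two-sided, adjusted p = 0.00750). With later introns standardised to intron length the difference was 2.85 and did not pass (adjusted p = 0.0610, exact permutation test), and in peaks of at least 500 bp it was 0.829 (adjusted p = 0.611, exact permutation test). For TGGGAA the shares were 15.1% and 16.4%, for AGGAAG 40.3% and 38.3%, and for TGTGGT 26.9% and 27.7%, none past the test (adjusted p = 0.112, 0.102 and 0.348, exact permutation test). TGTGGT was lower in members by 3.21 percentage points and passed with later introns standardised to intron length (adjusted p = 0.0174, exact permutation test), and AGGAAG was higher and passed in peaks more than 5 kb from every start and over whole peaks (adjusted p = 0.0369 and 0.0409, exact permutation test).

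The other core that differed from later introns was that of CTCF, the factor that stops cohesin and marks the boundaries of chromatin loops. A 12-letter CTCF consensus was in the centre of 114 members (4.25%, 95% Wilson interval 3.55 to 5.08) and 619 later-intron peaks (9.65%, interval 8.95 to 10.4), and in 0.112% of the members' flanks. Per autosome members were lower by 5.07 percentage points ± 2.68 (SD, n = 19 autosomes) and on 18 of 19 (exact sign-flip permutation test, two-sided, adjusted p = 2.57e-05). The share was 9.55% in peaks outside transcripts. In members it ranged over autosomes from 1.79 to 9.21% with a median of 3.23%, and in later-intron peaks from 6.90 to 12.6% with a median of 9.68%. Pooled over all intron lengths and distances, peaks with the consensus had a density of 0.537 per Mb in first introns and 1.03 per Mb in later introns. Peaks without it had 12.1 and 9.66 per Mb. These densities were neither standardised nor tested. Below 5 kb of intron, first introns held 3 peaks with the consensus in 8.59 Mb and later introns 313 in 152 Mb. At 50 to 100 kb the counts were 15 in 40.8 Mb and 29 in 80.6 Mb. Above 100 kb they were 31 in 74.7 Mb and 23 in 109 Mb.

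The share in later-intron peaks varied with the length of the intron. It was 14.8% in later introns shorter than 5 kb, 9.38% at 5 to 20 kb, 6.41% at 20 to 50 kb, 3.86% at 50 to 100 kb and 4.69% above 100 kb. First introns had 3.66% (3 of 82 peaks), 5.47%, 3.74%, 2.62% and 5.45% in the same classes, with intervals that overlapped those of later introns in the 3 longest classes. Above 100 kb, 31 first-intron peaks had the consensus, and 12 of these lay in Gm20388. By number of the intron the share was 6.60% in intron 2, 7.72% in intron 3, 9.20% in intron 4, 8.40% in intron 5 and 12.1% in intron 6 and beyond, whose median length was 5766 bp. Standardised to the intron lengths of members, later introns had 6.51% per autosome against 4.41% in members, a difference of -2.10 percentage points that still passed (adjusted p = 0.00787, exact permutation test). In peaks of at least 500 bp it was -1.68 and did not pass (adjusted p = 0.0972, exact permutation test). The share was highest in narrow peaks, as a description with no test. The consensus was in 6.14% of members under 400 bp, 5.13% at 400 to 500 bp, 4.01% at 500 to 700 bp and 0 of 473 wider ones, which allows a share of up to 0.634%, and the median width was 426 bp with it and 473 bp without it. CAGCTG was in 15.8% of members with the consensus and 29.9% of those without. In the 112 members with a single match, the consensus lay on the strand of the host gene in 62 (55.4%).

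**Figure D5:**
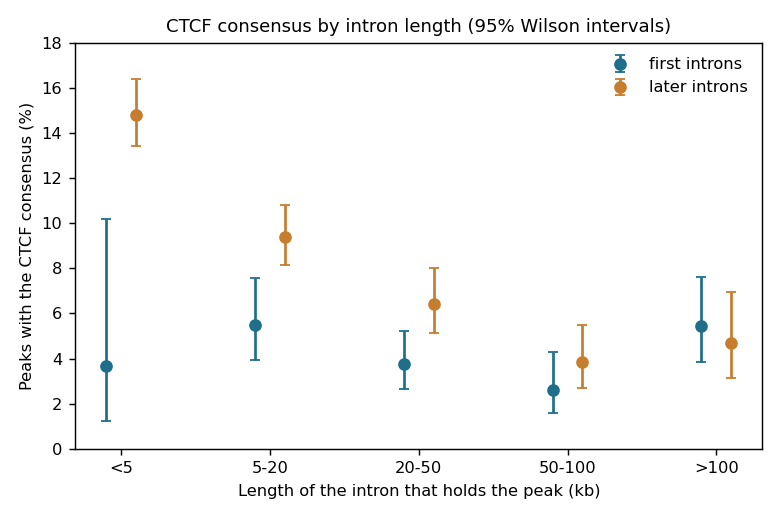
Share of peaks with the CTCF consensus in their central 200 bp (y axis, %) by the length of the intron that holds the peak in kb (x axis), for first and later introns with 95% Wilson intervals. Later introns stand at 14.8% below 5 kb and at 3.86% at 50 to 100 kb, and first introns lie between 2.62 and 5.47%. Above 100 kb, first introns include that of Gm20388.

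The members below held the consensus, in the 10 hosts with most members after the tie at 8 was broken by density and in the listed genes. Sorcs2, of the tied hosts, also had 1, which is not shown. The sites are printed over 40 bp on the strand of the match, with the match in capitals, to show how these sites vary.
Cd247 chr1:167784030-167784069 (+ strand): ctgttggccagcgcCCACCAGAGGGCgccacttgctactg
Ccdc162 chr10:41398775-41398814 (- strand): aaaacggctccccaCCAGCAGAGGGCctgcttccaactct
Pde10a chr17:8790810-8790849 (- strand): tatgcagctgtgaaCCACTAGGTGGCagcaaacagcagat
Pde10a chr17:8807204-8807243 (+ strand): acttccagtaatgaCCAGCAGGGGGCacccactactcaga
Prkce chr17:86692908-86692947 (- strand): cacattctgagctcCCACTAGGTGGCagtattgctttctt
The Cd247 site lay in the member nearest the end of the first intron, 65211 bp from the start of the gene, and that member also held CAGCTG and TGTGGT in its centre. Pde10a held 2 such members among its 17. Gm20388, which is not shown, held 12 among its 144.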

How the data were processed

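ATAC-Seq with a commercial kit was performed on 6 libraries of Beko cells (3 GSI, 3 DMSO), and groups follow the sample labels. According to the methods, reads were trimmed and mapped to mm9 with HISAT2 2.2.1 (version from the submitters' processing notes), and duplicates were taken out with Picard. The authors then called peaks with MACS2 and no input, required a peak in 3 of 6 libraries, and dropped blacklisted intervals. The deposited file lists starts and ends in bp, and its score is 0 throughout. Which libraries held a peak is not recorded, and a peak of 1 treatment can pass. A shift of reads for the transposase is not given in the sources used here. Read depth was not used, so precision is given as the spread over autosomes and as Wilson intervals, which cover counting error only.

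Sequences were read from NCBIM37, which is mm9, and transcripts from GENCODE vM1. Positions count from 1. Analyses used Python 3.11.15 and numpy 2.4.6, and methods were tested on simulated data. Members, gene lists and tests were chosen with earlier results of these data known. Differences were tested per autosome with the exact sign-flip permutation test over 19 autosomes, adjusted by Benjamini-Hochberg over 27 tests (threshold 0.05). Motif cores were counted on both strands, overlaps allowed. The degenerate RBPJ core includes TGGGAA. Flanks met no peak, and 4 members had none. They could lie near a start, as 232 did within 1 kb. GC content stands for the whole peak. Genes in list comparisons were matched by symbol or RefSeq synonym. Named are the 10 hosts with most members, the 5 widest members, the 5 with most TGGGAA, members in up to 10 genes of each of 3 lists (T-cell transcription factors, T-cell receptor signalling, Notch pathway), and peaks nearest the limits. Il2ra, Abi2, Cd38, the 4 synaptic genes and the peaks at the CpG limit were chosen after their values were seen. Some genes of these lists are counted but not reported here by name. Alternatives are described in the closing section.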

Additional observations from a re-analysis of the deposited data

How the results depend on the processing

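No paired analysis was possible because the merged list has no value per library, so the replicate numbers of the labels could not be used and no library could be left out. The share of masked repeats was planned but not run, since the reference does not mark repeats. Of alternatives planned or added, a minimum width of 500 bp left 1147 members, with 6 of 12 cores called against flanks (11 in the reported comparison) and 0 against later introns (2 reported), and moved the density difference to 0.788 per Mb (adjusted p = 0.00902, exact permutation test). The density difference was 1.76 per Mb without standardisation by distance and 3.41 per Mb standardised to intron length. Over whole peaks 5 cores differed from later introns, and with flanks 10 kb away 7 differed from flanks. Pairs with TGGGAA and TTCCCA only were found in 0 members. With only members more than 5 kb from every start, the members went from 2682 to 1936 and hosts in the gene lists from 69 to 56. The share of hosts over all genes was not computed with that limit, so these counts have no background beside them. Hosts went from 9 to 5 for the Notch pathway, 14 to 11 for T-cell receptor signalling and 16 to 14 for T-cell transcription factors. For cytokine receptors and homing they went from 9 to 7 and for chromatin regulators from 16 to 14. The B-cell and myeloid list stayed at 1 and the synaptic list at 4. Differences from later introns that turned in sign, none of them called in the reported comparison, were those of CTTTGA, at -0.0413, -0.194, -1.84, -0.0480 and -1.13 percentage points (more than 5 kb from every start, intron 1 in every coding transcript, at least 500 bp, no CpG limit, and standardised to intron length), of AGGAAG, at -0.823 (at least 500 bp), and, over whole peaks, of the RBPJ core TGGGAA, its degenerate form and the RUNX core, at 0.491, 1.96 and 0.448. The degenerate form was thereby called as higher in members (adjusted p = 0.0404, exact permutation test). The higher width of members passed under all 5 alternatives (adjusted p from 0.00131 to 0.00827, exact permutation test) and the higher promoter share of hosts under all 4 (23.8 to 34.9 percentage points). None of the 5 width alternatives standardised to intron length. Below 5 kb of intron the median width was 432 bp in members and 446 bp in later-intron peaks. In the classes from 5 kb up, members had 470.0, 463, 474 and 488 bp, against 457, 457, 466 and 474 bp. Widths within these classes were not tested. The alternatives without Gm20388, with flanks away from starts, and standardised to intron length or peak width were added after seeing the data. The causes of these shifts were not tested.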
